A study of Mus musculus with 4 samples.

Results

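The dopamine receptor genes Drd1, Drd2, Drd3, Drd4 and Drd5 were followed in the globus pallidus of mice given cocaine or saline. They were selected as the probes that the platform annotation pairs with exactly 1 gene symbol equal to a receptor symbol, and the spots of 1 gene were averaged. All 5 receptor genes were found, on 8 of 45220 spots, among 19087 genes with 1 symbol. The tissue came from male mice of the C57BL6 background that had gone through conditioned place preference, which pairs a drug with one side of a cage and then scores the time spent there. The cocaine dose was 15 mg/kg, given on days 2, 3 and 4, and per the sample names and the series description these mice had a low place preference score. Saline mice went through the same protocol with saline on those days. No age is given in the labels, and cocaine mice with another score were not analysed here, so an effect of the drug and one tied to a low score cannot be told apart.

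Each of 4 two-colour arrays of 60-mer probes carried RNA of 1 cocaine mouse and 1 saline mouse, and the cocaine RNA was labelled with Cy5 on arrays 1 and 3 and with Cy3 on the other two. Every channel has an animal code of its own in the sample names, so an array counts as 1 biological replicate, and their number limits the precision. The deposited values were log2 ratios that still held a dye bias. The deposited ratios of 45018 spots correlated at 0.90 and 0.87 (Pearson) where 2 arrays had the same dye orientation, and at -0.83 to -0.96 where the orientation was opposite. The columns were therefore read as already turned to 1 treatment direction. Cocaine over saline is the likely direction, from the wording of the series description, and every sign below turns if it was saline over cocaine.

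Dopamine receptors are G-protein-coupled receptors in 2 classes. The class of Drd1 and Drd5 couples to the stimulatory G proteins Gs and Golf and raises cyclic AMP, and the class of Drd2, Drd3 and Drd4 couples to Gi and Go and lowers it. In the basal ganglia Drd1 marks striatal neurons of the direct pathway and Drd2 those of the indirect pathway, whose axons end in the globus pallidus. Cocaine blocks the dopamine transporter and so raises extracellular dopamine.

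The measured ratios differed in how far their spots stood above background. No channel intensities were used here, so the dye bias averaged over both dye orientations served as a stand-in for brightness. A spot was called above background where this bias exceeded 0.016 on the log2 scale, as 68.1% of all spots did. Of the 8 receptor spots 6 passed. The Drd1 spot stood at 0.63, both Drd2 spots at 0.40 and 0.91, and the brighter Drd4 and Drd5 spots at 0.68 and 0.60. The other Drd4 spot stood at -0.023 and the other Drd5 spot at -0.075, both below the limit. The Drd3 spot passed narrowly, at 0.087. These are ratios of 2 dyes, so they give no order of expression levels between the receptors.

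A lower bound on the signal came from the decimals of arrays 1 and 3, whose deposited values were in most cases exact ratios of whole numbers. In lowest terms the Drd2 spots equalled 164 over 163 and 406 over 323 on array 1, and 501 over 311 and 839 over 371 on array 3. The Drd1 spot equalled 103 over 65 on array 1 and 177 over 79 on array 3. The Drd3 spot equalled 71 over 66 and 20 over 19. A factor shared by both channels cancels, so these numbers are the lowest signals that the ratios allow. Among spots at or below the background limit, the 99th percentile of the larger of the 2 numbers was 147 on array 1 and 153 on array 3. Both Drd2 spots exceeded these values on both arrays, and Drd1 on array 3 only. On array 3 the brighter Drd4 spot, at 368 over 229, and the brighter Drd5 spot, at 401 over 268, exceeded them as well. On array 1 they reduced to 53 over 38 and to 16 over 11, which leaves their signal there unsettled. The dim Drd4 spot, at 144 over 139 and 64 over 67, and the dim Drd5 spot, at 133 over 144 and 66 over 67, did not exceed them, nor did Drd3. A ratio that stays below them does not show a weak signal, since a shared factor may have cancelled. Among whole-number ratios of spots above the background limit, only 57.58% on array 1 and 60.75% on array 3 had a larger number over 150. Background still stands in such raw ratios, so they understate the fold of a weak transcript.

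**Figure D1:**
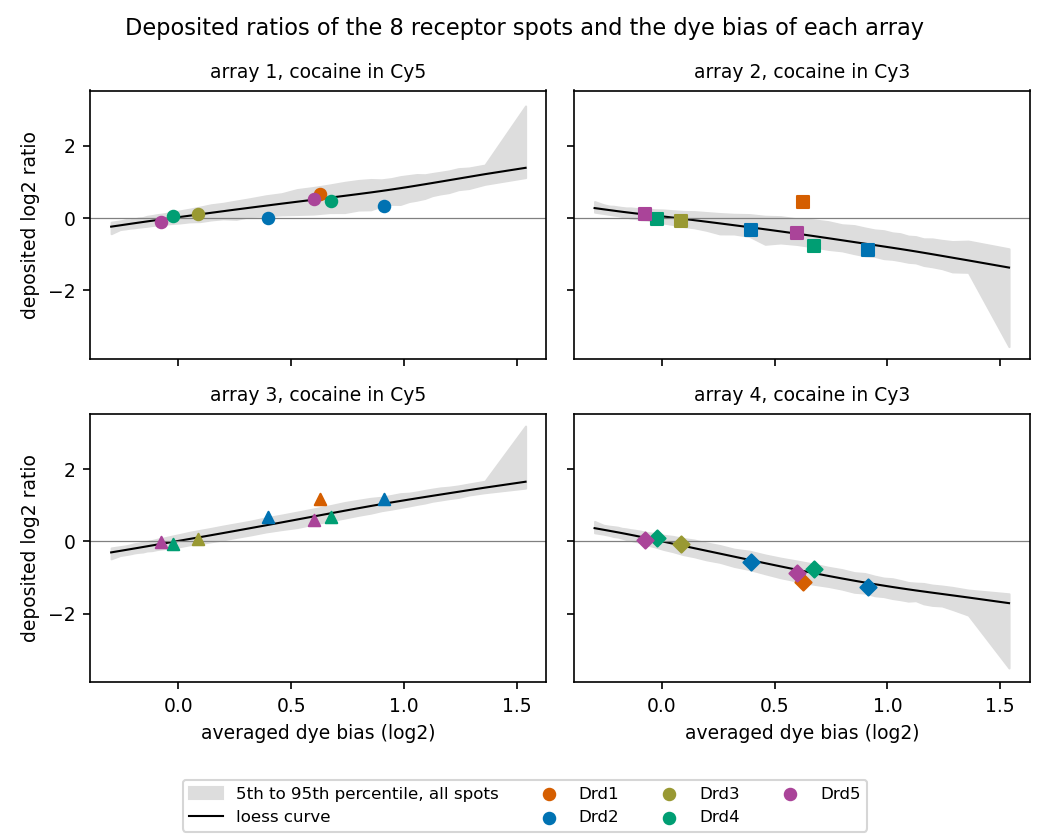
Deposited log2 ratio (vertical axis) of the 8 receptor spots on each array against the dye bias averaged over both orientations (log2, horizontal axis), with the loess curve of the array and the 5th to 95th percentile of all spots in grey. Drd1, in orange, lies at 0.43 on array 2 where the curve lies at -0.46, while the Drd3 spot and the dim Drd4 and Drd5 spots lie near the curve on every array.

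Drd1, which encodes the D1 receptor (Entrez gene 13488), had the largest mean difference of the receptors and also the widest spread between arrays. As deposited, its single spot read 0.66, 0.43, 1.16 and -1.12 on arrays 1 to 4. The loess curves of the arrays at its dye bias lay at 0.53, -0.46, 0.72 and -0.82. After subtraction of the curve, the normalized log2 ratios of Drd1 on arrays 1 to 4 were 0.13, 0.89, 0.44 and -0.30. It was thus higher in the cocaine mouse on 3 arrays and lower on array 4, which has the dye orientation of array 2. The dye bias of a spot comes from its own 4 values, so the value on array 2 moves all 4 normalized values. Without array 2 the dye bias of Drd1 was 1.02, where the same curves of arrays 1, 3 and 4 lay at 0.86, 1.16 and -1.26. Against these the deposited values of arrays 1 and 4 change side, and that of array 3 lies near the curve. The signs of arrays 1 and 4 and the ranks of arrays 1, 3 and 4 thus rest on array 2. On array 2 only 6 of 19087 genes, Drd1 among them, stood as high, and on array 3 84 did, while on array 4 294 stood as low.

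The mean log2 ratio of Drd1 was 0.29 (SE 0.20, n = 4 arrays), or 1.22-fold, with a 95% interval from -0.20 to 0.79. By limma this difference did not pass, with an unadjusted p of 0.193 and an adjusted p of 0.999. Its range over the 4 arrays, 1.19 on the log2 scale, was wider than that of 99.8% of genes, against a median range of 0.20 over all genes. Without array 2 the mean log2 ratio of Drd1 was 0.016, and without array 4 it was 0.61, so single arrays set its size. In dissected tissue a lower ratio can come from fewer cells of a type or from less RNA per cell, and these cannot be told apart.

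Drd2, which encodes the D2 receptor (Entrez gene 13489), was measured by 2 spots for the same transcript. The normalized log2 ratios of the first spot were -0.34, -0.070, 0.23 and -0.040 on arrays 1 to 4, and those of the second were -0.43, -0.17, 0.13 and -0.10. Both spots placed array 1 lowest and array 3 highest, so their order over the arrays was the same. Averaged over its spots, Drd2 had -0.39, -0.12, 0.18 and -0.072 on arrays 1 to 4, lower in the cocaine mouse on 3 arrays.

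The mean log2 ratio of Drd2 was -0.10 (SE 0.10, n = 4 arrays), with a 95% interval from -0.35 to 0.15, and it did not pass by limma (unadjusted p 0.361, adjusted p 0.999). Its range over the arrays, 0.57, was wider than that of 94.5% of genes. Without array 1 its mean was 0.035, on the other side of 0, and without array 3 it was -0.25.

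**Figure D2:**
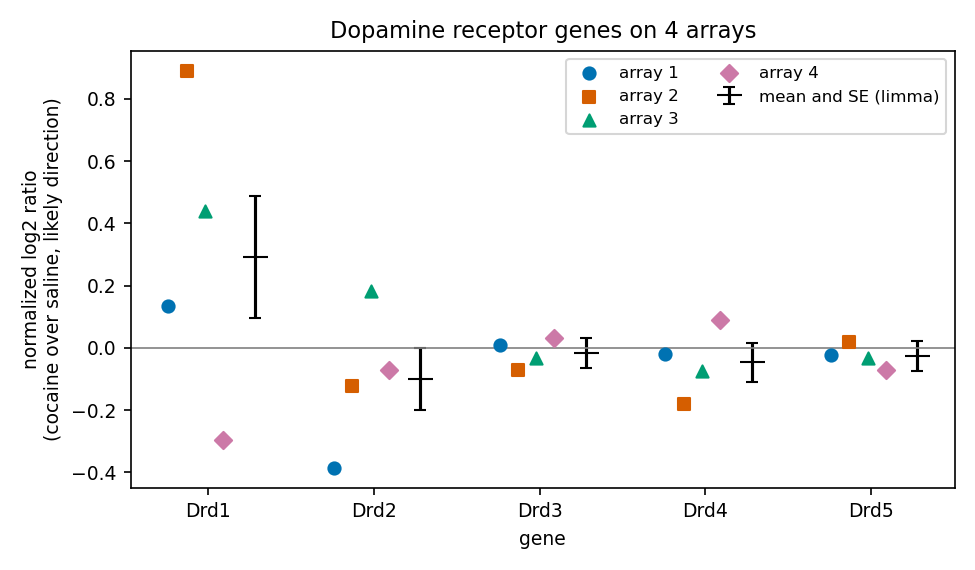
Normalized log2 ratio (vertical axis) of the 5 receptor genes (horizontal axis) on arrays 1 to 4, with the mean and its SE from limma in black. Drd1 spans -0.30 to 0.89 and Drd2 -0.39 to 0.18, while Drd3 runs from -0.072 to 0.030 and Drd5 from -0.071 to 0.020.

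Whether the 2 main striatal receptors differed from each other was asked within each array. Drd1 minus Drd2 was 0.52, 1.01, 0.26 and -0.23 on arrays 1 to 4. The mean difference was 0.39 (SD 0.52, n = 4 arrays) and was positive on 3 of 4 arrays. An exact two-sided sign-flip permutation test over the arrays gave p = 0.25. With 4 arrays the smallest p it allows is 0.125, and normalization ties the array values together, so this test decides nothing. The mean difference was smaller than its SD between arrays. It was 0.11 without array 2 and 0.73 without array 4.

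Drd3, which encodes the D3 receptor (Entrez gene 13490), best known from the ventral striatum and the islands of Calleja, stayed near 0. Its normalized log2 ratios were 0.0092, -0.072, -0.034 and 0.030 on arrays 1 to 4. It was higher on 2 arrays and lower on 2. The mean was -0.017 (SE 0.049, n = 4 arrays), with a 95% interval from -0.14 to 0.11. Since its dye bias lay near the background limit, the interval describes the ratio of the spot and bounds no change of the transcript.

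Drd4, which encodes the D4 receptor (Entrez gene 13491), known from the prefrontal cortex and the retina, had 1 spot above the limit and 1 below it. The spot above the limit had normalized log2 ratios of -0.087, -0.27, -0.095 and 0.11 on arrays 1 to 4. The dim spot had 0.046, -0.086, -0.056 and 0.063, a narrower range. Both spots had array 2 as their lowest and array 4 as their highest value, the reverse of Drd1, though normalization links these 2 arrays. The gene mean was -0.047 (SE 0.062, n = 4 arrays), with a 95% interval from -0.21 to 0.11, and the brighter spot alone gave -0.085 (SE 0.078). The mean changed sign, to 0.010, without array 2.

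Drd5, which encodes the D5 receptor (Entrez gene 13492), of the same class as Drd1 and known from hippocampus and cortex, stayed near 0 as well. Averaged over its spots it had -0.022, 0.020, -0.033 and -0.071 on arrays 1 to 4. Its spot above the limit gave 0.032, 0.023, -0.11 and -0.085, and its dim spot gave -0.076, 0.017, 0.045 and -0.057. The 2 spots shared a sign on arrays 2 and 4 only. The mean of Drd5 was -0.026 (SE 0.048, n = 4 arrays), with a 95% interval from -0.15 to 0.095.

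None of the 5 receptor genes passed an adjusted p under 0.05 by limma, where 0 of 30452 features did, which is 0%. At an unadjusted p under 0.05 there were also 0 of 5 receptors, against 529 features (1.74%), or 1.52% of the genes with 1 symbol. None had the same sign on 4 of 4 arrays, which 14.8% of all genes had. The mean log2 ratio was above 0 for Drd1 and below 0 for the other 4 genes, where 48% of genes had a mean above 0. The 95% interval of Drd2 ran from 0.78-fold to 1.11-fold and that of Drd1 from 0.87-fold to 1.73-fold. Those of Drd3, Drd4 and Drd5 were narrower but rest wholly or in part on spots near or below the background limit, so they bound no change of these transcripts. A p above the threshold does not show that a receptor transcript did not differ.

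**Figure D3:**
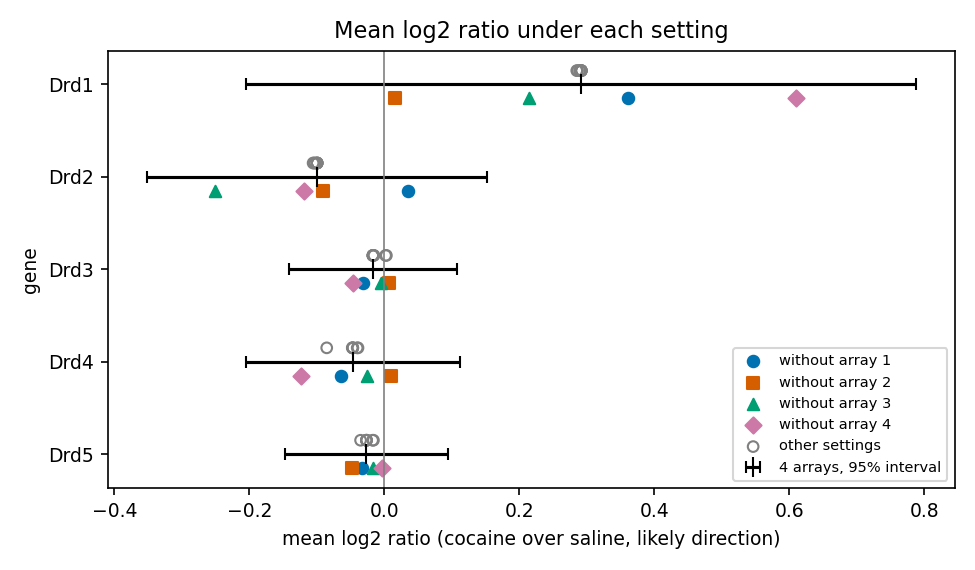
Mean log2 ratio (horizontal axis) of each receptor gene (vertical axis) with 4 arrays and its 95% interval in black, without each array in turn as coloured symbols, and under the other settings as open circles. The 4 means of Drd1 without single arrays run from 0.016 to 0.61, while the other settings leave it near 0.29.

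The array pattern of Drd1 was shared by other genes of striatal neurons. Pdyn, the dynorphin precursor of direct-pathway neurons, had 0.37, 1.43, 0.64 and -0.41 on arrays 1 to 4. It had the same order of arrays as Drd1, with wider steps. Tac1, the substance P precursor of the same neurons, stood at 0.054, 0.24, 0.13 and -0.051 on arrays 1 to 4, again in that order. The mean log2 ratio was 0.51 (SE 0.29) for Pdyn and 0.092 (SE 0.065) for Tac1, and neither passed by limma (unadjusted p 0.140 and 0.213, adjusted p 0.999 for both).

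Drd2 instead ran close to Ppp1r1b, which encodes DARPP-32, the phosphatase inhibitor that acts downstream of dopamine receptors in both kinds of striatal neuron. Ppp1r1b had -0.32, -0.0084, 0.20 and -0.10 on the same arrays in order. The root mean square difference between the 2 genes over the 4 arrays was 0.068, and 181 of 19086 genes were closer to Drd2. Penk, the enkephalin precursor of indirect-pathway neurons, stood at -0.22, 0.21, 0.20 and -0.22, so array 2 was high for Penk and slightly negative for Drd2. The mean log2 ratio of Penk was -0.0080 (SE 0.10). Penk had the same order of arrays as Drd1 only by narrow steps, well within its SE. Array 2 stood at 0.210 against 0.201 on array 3, and array 4 at -0.223 against -0.220 on array 1. Penk therefore does not settle whether the order was particular to direct-pathway genes, though 23.6% of all genes had array 2 highest and array 4 lowest. By root mean square difference 120 of 19086 genes were closer to Drd1 than Pdyn was, 540 than Tac1 and 784 than Penk.

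**Figure D4:**
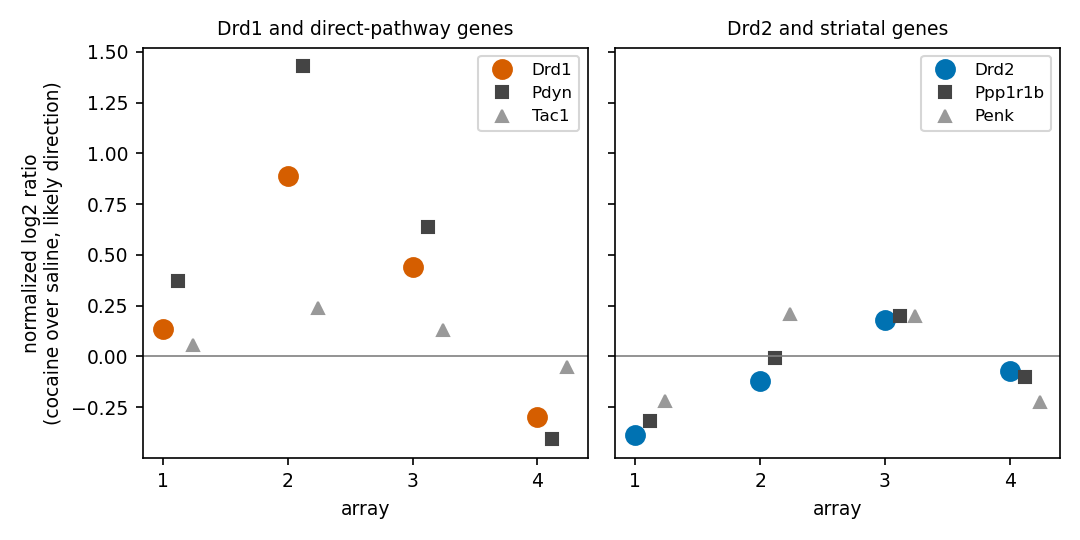
Normalized log2 ratio (vertical axis) on arrays 1 to 4 (horizontal axis) of Drd1 with Pdyn and Tac1 on the left, and of Drd2 with Ppp1r1b and Penk on the right. Drd1, Pdyn and Tac1 are highest on array 2 and lowest on array 4, and Penk is so by narrow steps only. Drd2 and Ppp1r1b are lowest on array 1 and highest on array 3.

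Striatal markers were also read as whole lists. Of 10 measured markers shared by striatal projection neurons, all 10 above background, the median was 0.047, 0.25, 0.14 and -0.10 on arrays 1 to 4. Of 8 direct-pathway markers, all above background, the medians were 0.053, 0.096, 0.016 and -0.098. Of 5 indirect-pathway markers, 3 of them above background, they were -0.053, 0.094, 0.0097 and -0.051. Array 2 thus had the highest median of all 3 lists. Array 4 had the lowest in the shared and direct-pathway lists, as in Drd1, and array 1 in the indirect-pathway list. The direct-pathway median was lower on array 3 than on array 1, unlike Drd1. Gene by gene, array 2 was the highest and array 4 the lowest for 6 of 8 direct-pathway, 7 of 10 shared and 3 of 5 indirect-pathway markers. Among all genes 23.6% had this order. Of these indirect-pathway markers, Gpr6 and Sp9 (named after their values were seen) lay below the background limit. Penk has the order only by the narrow steps given above. In other lists it was found in 3 of 6 cholinergic and 4 of 13 pallidal markers, 9 of 19 transduction genes and 7 of 16 receptor regulators and partners. The last 2 lists overlap the shared striatal list, and Gnal, Pde10a and Rgs9, which have this order, are counted in both. It was found in 1 of 9 midbrain dopamine, 1 of 7 cortical and hippocampal and 1 of 5 microglia markers. Oligodendrocyte markers had it in 2 of 7, astrocyte and endothelial markers in 2 of 6 each, and dopamine synthesis, transport and breakdown genes in 3 of 9. The order with array 2 highest was picked after the values of Drd1 were seen, and Drd1 itself has it. Normalization ties the means of the 2 dye orientations together, so a gene highest on array 2 tends to be lowest on array 4. The high array 2 and the low array 4 are therefore not 2 separate likenesses, and arrays 3 and 1 are linked in the same way. The opposite pair, with array 3 highest and array 1 lowest as in Drd2, was found in 3 of the 10 shared markers and in 0 of the 13 direct- and indirect-pathway markers, against 23.4% of all genes. Whether the amount of striatal RNA in each sample had a part in the Drd1 values was not tested.

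Over the 4 arrays together the shared list had a median log2 ratio of 0.065, with 8 of 10 members above 0, the direct-pathway list 0.053, with 5 of 8, and the indirect-pathway list -0.0080, with 1 of 5. No member passed. The median over all genes was -0.0028. Without array 2 the median of the shared list was -0.0079 and that of the direct-pathway list 0.028, beside 0.016 for Drd1. Without array 4 the shared median was 0.17 and the indirect-pathway median 0.057.

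Markers of other neurons were read in the same way. The 13 measured markers of pallidal neurons, all above background, had medians of -0.054, -0.0038, -0.0065 and -0.080 on arrays 1 to 4, so array 2 was also the highest and array 4 the lowest of their medians, over a narrower span. Over all arrays 4 of them were above 0, with a median of -0.033, which was 0.036 without array 4. No difference between the lists was tested. Midbrain dopamine neuron markers, whose transcripts are made in cell bodies outside the pallidum, had a median of -0.0098 over 9 members. Th, tyrosine hydroxylase, stood at 0.022 (SE 0.053) over 10 spots, and Slc6a3, the dopamine transporter that cocaine blocks, at -0.0098 (SE 0.052).

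Markers of further cell types were set beside these values. Cortical and hippocampal glutamatergic markers had medians of -0.063, 0.12, 0.14 and 0.16 on arrays 1 to 4, with 5 of 7 above background. Their median was above 0 on array 4, where the normalized Drd1 value was below 0, and also on arrays 2 and 3, where it was above 0. The Drd1 values of arrays 3 and 4 rest on array 2, as given above. Over all arrays the median of these markers was 0.037, and without single arrays it ran from 0.0046 to 0.085. Over all arrays basal forebrain cholinergic markers had a median of -0.093 over 6 members and oligodendrocyte markers one of -0.11 over 7, with 0 above 0. The medians were -0.064 for 6 astrocyte, -0.071 for 5 microglia and 0.013 for 6 endothelial markers. Single arrays moved these medians: without one array they ran from -0.12 to -0.029 for cholinergic, from -0.14 to -0.035 for oligodendrocyte, from -0.12 to -0.017 for astrocyte, from -0.11 to -0.0052 for microglia and from -0.025 to 0.053 for endothelial markers. None of these genes passed, and their part in the receptor values was not tested.

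Genes of dopamine signalling and handling were read from 3 lists. These were transduction genes, receptor regulators and partners, and genes of dopamine synthesis, transport and breakdown. Of their 44 measured members 0 passed by limma. Of 19 transduction genes (G proteins, adenylyl cyclase, protein kinase A and its targets) 7 were above 0 and 12 below, with a median of -0.018. The smallest p in this list belonged to Gsk3b, a kinase that acts downstream of the D2 receptor, at -0.15 (SE 0.11), and Prkar2b, a regulatory subunit of protein kinase A, at 0.11 (SE 0.080). Of 16 receptor regulators and partners 7 were above 0 and 9 below (median -0.0031). Rgs9, which speeds the shut-off of Gi and Go signalling in striatal neurons, stood at 0.13 (SE 0.060) and Cav1, the membrane scaffold caveolin, at 0.088 (SE 0.052), both above 0 on 4 of 4 arrays.

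Of 9 genes of dopamine synthesis, transport and breakdown, 5 were above 0 (median 0.022). Maob, a monoamine oxidase that breaks down dopamine, stood at 0.16 (SE 0.050), with 0.22, 0.15, 0.094 and 0.18 on arrays 1 to 4. Its unadjusted p of 0.0227 became an adjusted p of 0.999 over all features by limma. Dbh, which turns dopamine into noradrenaline, stood at 0.12 (SE 0.050) from a spot below the background limit.

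The genes most like each receptor over the arrays were found by the smallest root mean square difference of the 4 normalized log2 ratios. For Drd1 they were Plppr4 (difference 0.12), Akap5 (0.14) and Gabra4 (0.15), and no gene lay within 0.1. Plppr4 is a phospholipid phosphatase-related protein of glutamatergic synapses, Akap5 anchors protein kinase A at the synapse, and Gabra4 is a GABA-A receptor subunit that striatal neurons express. Plppr4 stood at 0.15, 0.72, 0.45 and -0.14 on arrays 1 to 4, and Akap5 at 0.36, 0.86, 0.27 and -0.24. Both were picked by these same 4 values, so their high array 2 and low array 4, which normalization also links, are no separate result. Neither passed (adjusted p 0.999 by limma). Drd2 had 565 genes within 0.1, with Fnta (0.012), Neurl1a (0.015) and Praf2 (0.015) nearest.

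Patterns near 0 were common, and likeness to the remaining receptors tells little. Within 0.1 there were 9313 genes for Drd3, 8870 for Drd5 and 4709 for Drd4. The nearest were Col8a1, Gm29571 and Ptbp1 for Drd3, Pym1, Mogat2 and Fkbpl for Drd4, and Krt31, Olfr1295 and Tex50 for Drd5, all at differences of 0.0045 to 0.0083.

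The dye effect asked how far the ratio of a receptor depended on which dye carried the cocaine RNA. The fit was run on values as deposited, since the loess takes this effect out. With all 4 arrays the coefficient of a gene equals the averaged dye bias of its spots, used above as a stand-in for brightness. It is thus the same quantity and no separate result. The coefficient was 0.66 (SE 0.15, n = 4 arrays) for Drd2, 0.33 (SE 0.060) for Drd4 and 0.26 (SE 0.074) for Drd5, with adjusted p of 0.016, 0.0087 and 0.032 by limma. It was 0.63 (SE 0.27) for Drd1 and 0.087 (SE 0.059) for Drd3, with adjusted p of 0.098 and 0.24. Thus 3 of 5 receptors passed, where 66.3% of features did, a share near that of the table as a whole. Each of the 3 calls was lost without at least 1 array: that of Drd2 without array 4 (adjusted p 0.060), that of Drd4 without array 1 or 3 (0.057 and 0.071) and that of Drd5 without array 1, 3 or 4 (0.12, 0.16 and 0.095). With each array centred on its median Drd4 and Drd5 did not pass either, and Drd3 passed with a coefficient of -0.32. The Drd1 coefficient was 1.02 with an adjusted p of 0.0044 without array 2. Had the columns not been turned to 1 direction, this coefficient and not the mean would be the treatment effect.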

How the data were processed

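Agilent Feature Extraction is the tool listed in the submitters' processing notes. The values deposited by the authors are log2 ratios, 1 for each spot on each array, and the authors' background correction and normalization are not given in the sources used here. Of values on arrays 1 and 3, 86.65% and 87.3% matched a quotient of integers on the log2 scale, with a denominator up to 1000 (tolerance 6e-10 and 2e-13), against 0.044% and 0% after a small random shift, so both arrays hold raw ratios. Arrays 2 and 4 were taken as alike. Per the labels' protocols, RNA came from a PicoPure extraction and 75 ng was amplified and labelled.

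In 202 rows all values were 0, and these were left out. Each array was normalized by loess (span 0.3) against the dye bias averaged over both orientations, which removes a dye effect and ties the means of the 2 orientations together, so the 4 values of a gene are not independent. Spots of 1 symbol were averaged. A total of 33653 probes had 1 symbol, 56 several and 11511 none. All 8 receptor spots matched RefSeq (GRCm38.p6) by Entrez identifier. Without a named build for the probes, coordinates were left out. The background limit lies 3 SDs above the mode of dim spots. limma 3.58.1 in R 4.3.3 fitted treatment and dye terms with eBayes (5.21 degrees of freedom) and Benjamini-Hochberg adjustment over 30452 features. A check on simulated data came before. It gave all spots noise of the same SD, so it does not show how well the fit finds differences in these data.

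The receptors and lists were chosen with earlier results of these data known. Named are the receptors, their 3 nearest genes, the 2 genes of smallest p per pathway list, and Tac1, Pdyn, Penk, Ppp1r1b, Th and Slc6a3. Adora2a, also on the list, was not analysed here. Gpr6, Sp9, Gnal and Pde10a were named beyond this rule, after their values were seen. Alternatives were the normalization, span, dye term, spot median, background filter, variance trend and each array left out. Single spots were added after the data were seen.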

Additional observations from a re-analysis of the deposited data

How the results depend on the processing

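With each array centred on its median 18 features passed by limma in place of 0, no receptor among them, and under every other setting 0 passed. Each ratio pairs a cocaine and a saline mouse on 1 array, so the fit is paired by design. Without single replicates the mean log2 ratio ran from 0.016 to 0.61 for Drd1, from -0.25 to 0.035 for Drd2, from -0.047 to 0.0070 for Drd3, from -0.12 to 0.010 for Drd4 and from -0.047 to -0.0034 for Drd5. The sign thus turned for Drd2 without array 1 (0.035), and without array 2 for Drd3 (0.0070) and Drd4 (0.010). It also turned for Drd3 as deposited (0.0031) and with median centring (0.0019). The cause was not tested. Leaving out 1 array leaves a lone one with its dye orientation, which is assumed to vary like the rest. Drd1 minus Drd2 ran from 0.11 to 0.73 without single replicates. The dye coefficient ran from 0.24 to 1.02 for Drd1, from 0.46 to 0.85 for Drd2, from 0.079 to 0.094 for Drd3, from 0.31 to 0.34 for Drd4 and from 0.20 to 0.33 for Drd5. It passed for Drd1 without array 2, and was no longer past the threshold for Drd2 without array 4, for Drd4 without array 1 or 3 and for Drd5 without array 1, 3 or 4. Median centring lowers all dye coefficients by 0.41 by construction, to -0.32 for Drd3, -0.082 for Drd4 and -0.15 for Drd5. Drd3 then passed in the opposite direction (adjusted p 0.0054), and Drd4 and Drd5 did not pass (0.50 and 0.22). Dye biases near or below the background limit restrict what Drd3 and the dim Drd4 and Drd5 spots can show.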
